A study of Drosophila melanogaster with 36 samples.

Results

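Cytochrome P450 genes were taken as all genes on the array whose symbol is Cyp followed by a digit. That rule found 81 of 10851 genes, of which 79 are cytochrome P450 genes. The other 2, Cyp1 and Cyp40, are cyclophilins, peptidyl-prolyl isomerases that share only the first letters of the name, and they were kept apart from every count. Of the 79 P450 genes, 71 had enough values to be tested.

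Cytochrome P450 enzymes are haem proteins that insert oxygen into a wide range of substrates. In insects, members of the CYP3 and CYP4 clans include many enzymes that break down plant compounds and insecticides in the gut, Malpighian tubules and fat body, while CYP2 and mitochondrial members include enzymes that make or inactivate the moulting hormone ecdysone. Many of the genes arose by repeated local duplication and still lie side by side.

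The study compared whole adult flies of the strains Oregon[R], labelled wild type, Antennapedia[73b] and apterous[56f], called OregonR, Antp73b and ap56f here. Antennapedia is a homeotic gene of the thorax and apterous a selector gene of the wing. RNA from a pair of samples was hybridised to each of 36 arrays: 24 arrays carried different strains, with 4 arrays for each strain pair in each dye orientation, and 12 arrays carried the same strain in both channels. All flies came from 1 commercial supplier per the labels, and the labels state no sex, no age and no number of RNA preparations. The p-values therefore reflect array-to-array spread that may be purely technical, and effects of the named alleles and of the strains' other differences cannot be told apart.

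Each deposited value is a fold ratio of 1 channel to the other with a sign, and differences are given here on the log2 scale. The sources do not say which channel a positive ratio favours. Values were coded as channel 1 over channel 2, so a gene on the plus side in a comparison has more transcript in the strain named first if that coding is right, and less if it is the reverse. Sizes, counts and the grouping of genes do not depend on this choice. The files hold ratios only, so levels of different genes were not compared and the labelled whole flies could not be checked against marker levels. In RNA from whole flies, fewer cells of a type and less RNA per cell cannot be told apart.

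Between 26362 and 30716 of 31464 spots had a value on each array. A gene is called below when limma's adjusted p was under 0.05 over all 13345 features tested. Of the P450 genes, 43 of 71 (60.6%) differed among the strains by limma's F test, against 29.6% of all features. In Antp73b against OregonR, 31 P450 genes were called plus and 8 minus, 54.9% of those tested, against 23.2% of all features (11.7% plus and 11.5% minus). For ap56f against OregonR, 21 plus and 5 minus calls made 36.6%, against 15.9% (8.45% plus and 7.45% minus). For Antp73b against ap56f, 16 plus and 5 minus calls made 29.6%, against 15.6% (8.29% plus and 7.36% minus).

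Most of these differences were small. The median P450 difference was 0.08 in both comparisons with OregonR and 0.04 between the mutants, while the median of all features was 0.00 in each. Without array 57 the ap56f median was 0.05, and without array 58 that between the mutants was 0.02. Differences of 1.5-fold or more were called for 7 P450 genes in Antp73b against OregonR (9.86%, against 1.36% of all features). There were 2 in ap56f against OregonR (2.82%, against 0.742%) and 5 between the mutants (7.04%, against 0.899%). The median within the first 2 arrays of each group, the last 2, the even-numbered and the odd-numbered arrays was 0.08, 0.11, 0.09 and 0.14 in Antp73b against OregonR, 0.05, 0.10, 0.05 and 0.10 in ap56f against OregonR, and 0.04, 0.03, 0.05 and 0.01 between the mutants.

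**Figure D1:**
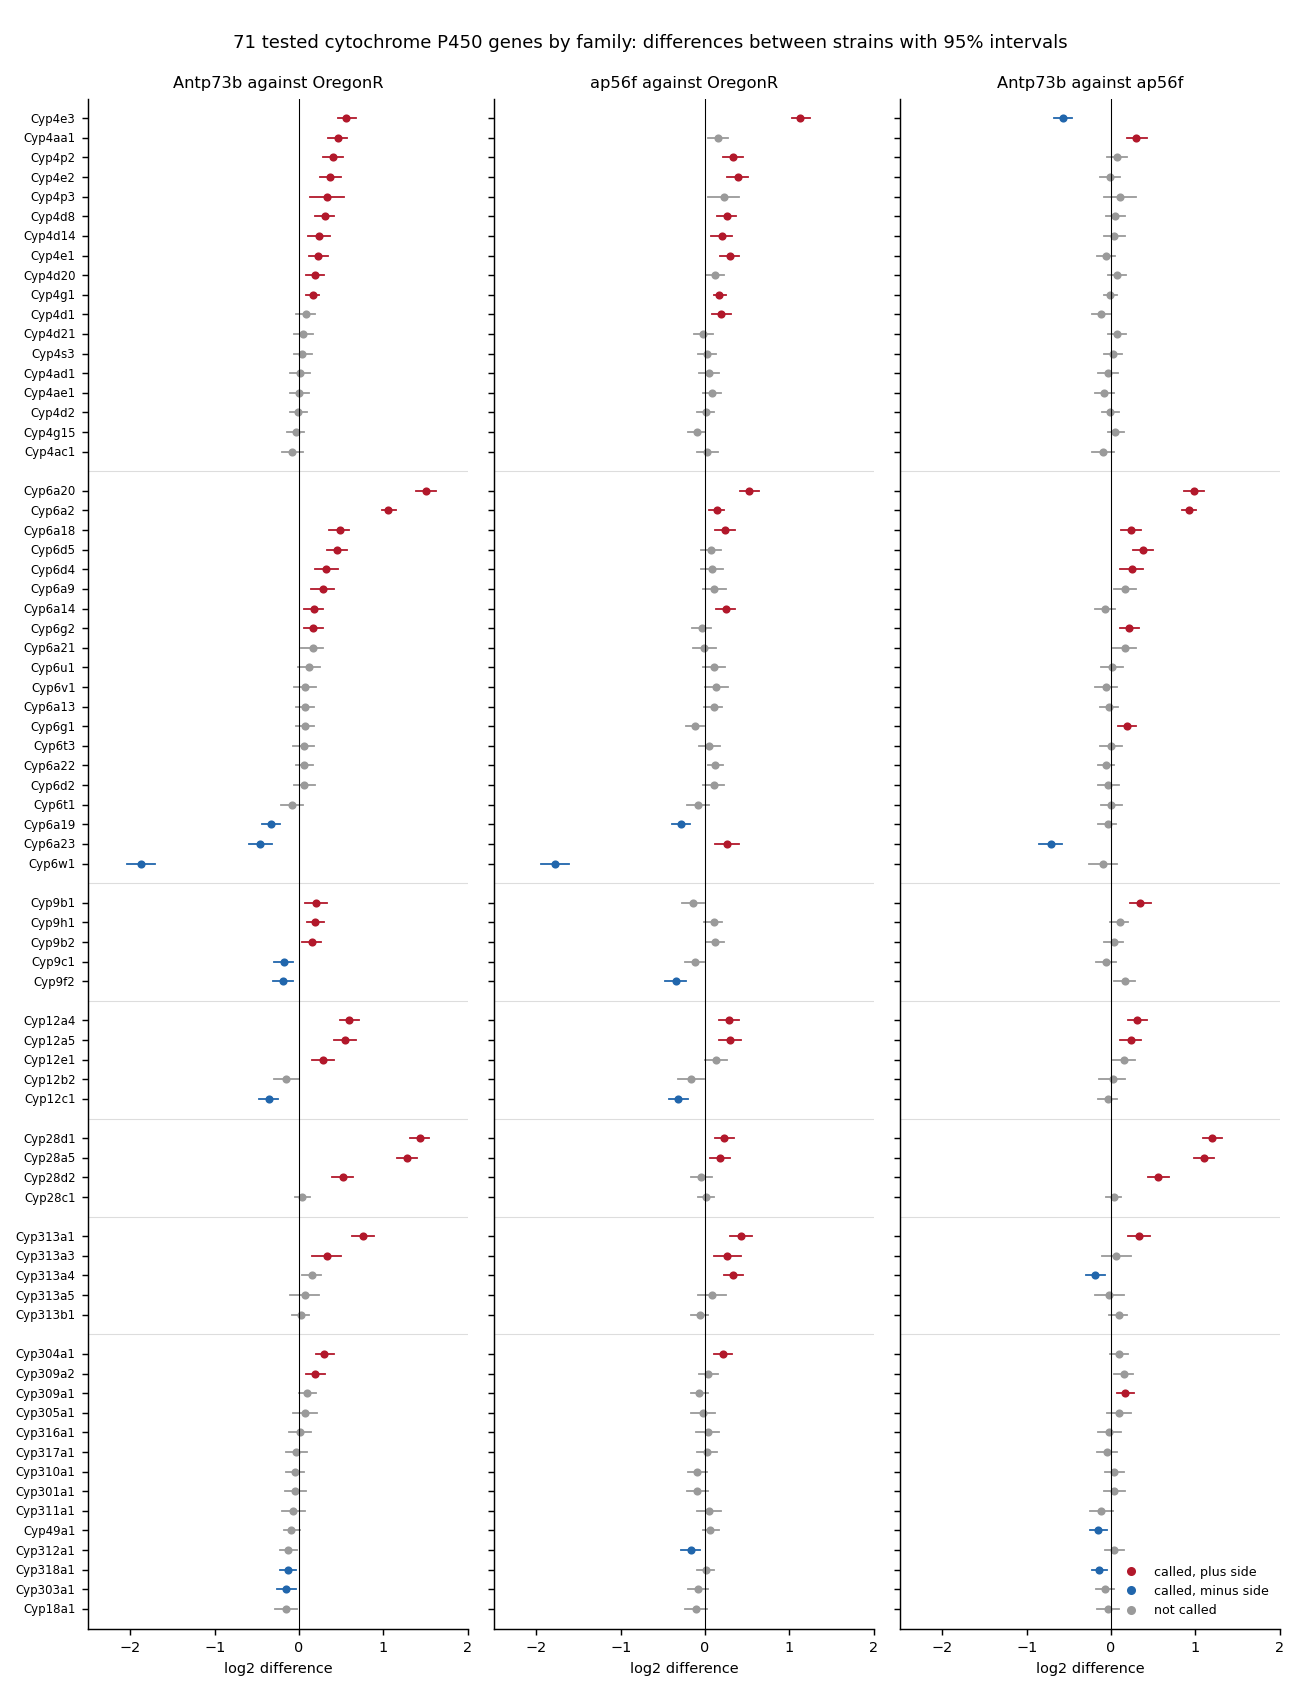
Log2 difference of each of the 71 tested P450 genes in the 3 comparisons, grouped by family (Cyp4, Cyp6, Cyp9, Cyp12, Cyp28, Cyp313, then all others) and ordered by Antp73b against OregonR. Points are estimates from 36 arrays and bars are 95% intervals. Most genes lie within 0.5 of zero. In Antp73b against OregonR, Cyp6w1, Cyp6a20 and Cyp6a2 stand far from most of their family, and Cyp28d1 and Cyp28a5 are the highest Cyp28 genes. In ap56f against OregonR, Cyp6w1 and Cyp4e3 stand far from the rest of their families.

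The strains fell into 3 main arrangements. Antp73b stood apart, called on the same side against both other strains, at 14 genes on the plus side (19.7%, against 5.17% of all features). Cyp6a23 and Cyp318a1 did so on the minus side (2.82%, against 3.66%). Both mutants lay on the same side of OregonR without a call between them at 9 genes toward plus (12.7%, against 2.78%). At 4 genes they did so toward minus (5.63%, against 3.32%). ap56f stood apart on the plus side at 3 genes (4.23%, against 2.5%), Cyp4e3, Cyp313a4 and Cyp6a23. On the minus side 0 genes did so (against 1.71%), with limma finding 5 minus calls for ap56f against OregonR in all.

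**Figure D2:**
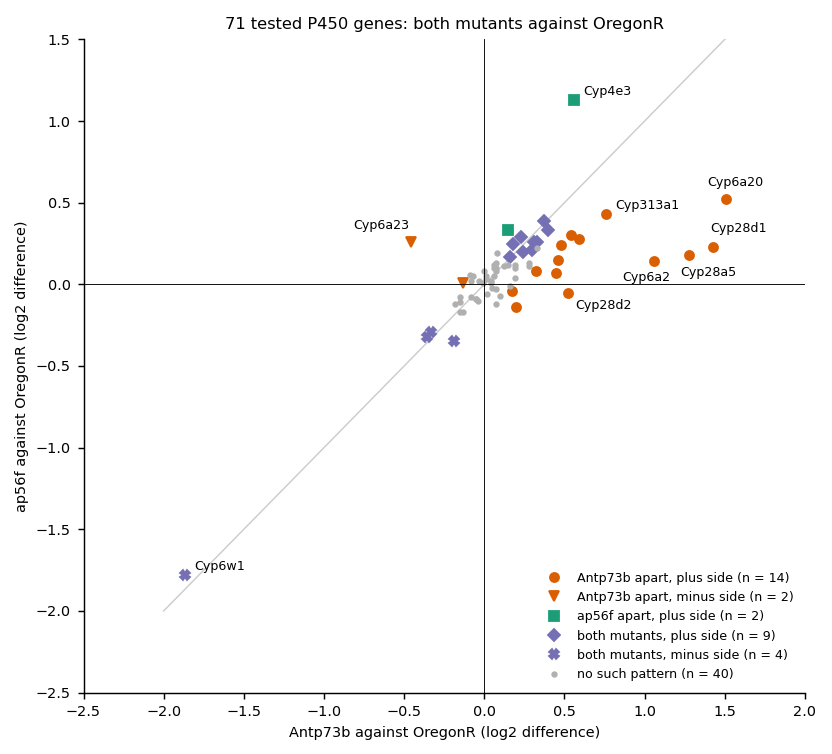
Log2 difference of 71 P450 genes in Antp73b (horizontal axis) and ap56f (vertical axis), both against OregonR and from 1 fit of 36 arrays, so the axes share arrays. Symbols mark which strain stood apart, Cyp6a23 is drawn once although both mutants stood apart there, and the grey line marks equal differences. Cyp28d1, Cyp28a5, Cyp6a2 and Cyp6a20 lie far to the right near or a little above the horizontal axis, Cyp4e3 lies high, and Cyp6w1 lies near the line at the lower left.

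In the Cyp28 family, 3 of 4 tested genes set Antp73b apart from both other strains on the plus side, against 5.17% of all features. Members of this family are induced by toxic cactus alkaloids in desert species of Drosophila. Cyp28d1 read between 1.03 and 1.80 (median 1.48) on the 8 arrays that paired Antp73b directly with OregonR. On the 8 arrays of ap56f and OregonR it read between -0.13 and 0.56 (median 0.13), and on the 12 arrays of a single strain between -0.32 and 0.07. The Antp73b arrays were high without overlap, while the ap56f arrays overlapped those of a single strain.

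Over all 36 arrays Cyp28d1 lay 2.69-fold to the plus side in Antp73b against OregonR (log2 1.43, SE 0.056, limma adjusted p = 7.3e-26). In ap56f against OregonR its difference was 0.23 (limma adjusted p = 0.0028), and between the mutants it was 1.20. Cyp28a5 ran much the same way, between 1.01 and 1.73 on the Antp73b and OregonR arrays and between -0.41 and 0.64 on those of ap56f and OregonR. These 2 ranges did not overlap, and the fitted differences were 1.28 (SE 0.058) and 0.18 (SE 0.058). The smaller value lost its call without array 56, 57, 67 or 71, with 0.14 at the least.

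Cyp28d2, the neighbour of Cyp28d1 on arm 2L, showed the same arrangement at a smaller size. It read between 0.32 and 0.72 on the Antp73b and OregonR arrays, between 0.20 and 0.85 on those of Antp73b and ap56f, and between -0.49 and 0.33 on those of ap56f and OregonR. Its differences from OregonR were 0.52 in Antp73b (limma adjusted p = 4.8e-09) and -0.05 in ap56f (adjusted p = 0.65). Cyp28c1, which lies on the X chromosome, was the only tested Cyp28 gene with no call in any comparison, at 0.04, 0.01 and 0.03.

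The Cyp6 family, the largest tested, had 12 of 20 genes that differed between strains (60.0%, against 29.6% of all features). In Antp73b against OregonR 8 were called plus and 3 minus, in ap56f against OregonR 5 plus and 2 minus, and between the mutants 7 plus and 1 minus. The plus and minus shares of all features were 11.7% and 11.5%, 8.45% and 7.45%, and 8.29% and 7.36%, so the minus calls of this family lay near them. Its members include the genes most often tied to insecticide resistance in this species. Both the most positive and the most negative P450 differences from OregonR in Antp73b belonged to it, at Cyp6a20 and Cyp6w1.

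Cyp6w1 set both mutants apart from OregonR. On the direct arrays it read between -2.43 and -1.65 (median -2.06) for Antp73b and between -2.10 and -1.04 (median -1.62) for ap56f, while the 12 arrays of a single strain ran from -0.16 to 0.26. Every array that paired a mutant with OregonR lay far below all single-strain arrays. The fitted differences were -1.87 (3.67-fold, SE 0.083, limma adjusted p = 7.4e-24) and -1.78 (3.43-fold, SE 0.083, limma adjusted p = 1.8e-22).

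The mutants themselves were not told apart at Cyp6w1. Their direct arrays ran from -0.39 to 0.70 on both sides of zero, and the fitted difference was -0.10 (95% interval -0.26 to 0.07, limma adjusted p = 0.48). Direct and indirect estimates of that difference disagreed by -0.52, the widest gap among P450 genes, yet no P450 gene and 0 of 13345 features passed limma's adjusted test for such a gap. At an unadjusted p under 0.05 there were 3 P450 genes and 407 features (3.05%).

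Cyp6a20, a gene whose loss is known to raise aggression between male flies, differed between all 3 strains. It read between 1.09 and 1.93 (median 1.42) for Antp73b and OregonR, between 0.26 and 0.72 (median 0.59) for ap56f and OregonR, and between 0.72 and 1.24 (median 1.00) for Antp73b and ap56f. The first 2 ranges did not overlap and all 24 values were positive. The fitted differences were 1.51 (2.84-fold, limma adjusted p = 1.5e-26), 0.52 and 0.98.

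Cyp6a2, a phenobarbital-induced gene whose enzyme can metabolise several insecticides, separated Antp73b from the other strains. It read between 0.88 and 1.24 for Antp73b and OregonR, between 0.73 and 1.39 for Antp73b and ap56f, and between -0.09 and 0.32 for ap56f and OregonR, with single-strain arrays between -0.17 and 0.10. Only the ap56f and OregonR arrays overlapped the single-strain arrays. This gene is carried by 2 array elements. They gave 0.88 and 1.24 in Antp73b against OregonR, 0.95 and 0.90 against ap56f, but -0.06 and 0.34 in ap56f against OregonR, so its gene value of 0.14 there (limma adjusted p = 0.02) rests on elements that disagree, and its call was lost without array 57 (0.13).

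Cyp6a23 was the 1 P450 gene called on opposite sides of OregonR in the mutants, an arrangement seen at 0.652% of all features. Its direct arrays ran from -1.18 to -0.07 for Antp73b and OregonR and from -1.21 to -0.37 for Antp73b and ap56f, with every value negative. For ap56f and OregonR they ran from -0.47 to 1.13 with 4 values on each side. The fitted differences were -0.46 and 0.26 from OregonR and -0.71 (SE 0.068, limma adjusted p = 9.5e-12) between the mutants.

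The split at Cyp6a23 followed the dyes. It had a dye offset of 0.34, and the 4 positive ap56f and OregonR values all came from arrays with ap56f in channel 1. With the offset taken off, 5 of 8 of those arrays lay on the plus side. In fits of the first 2, last 2, even-numbered or odd-numbered arrays alone, the ap56f difference ran from 0.16 to 0.36.

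**Figure D3:**
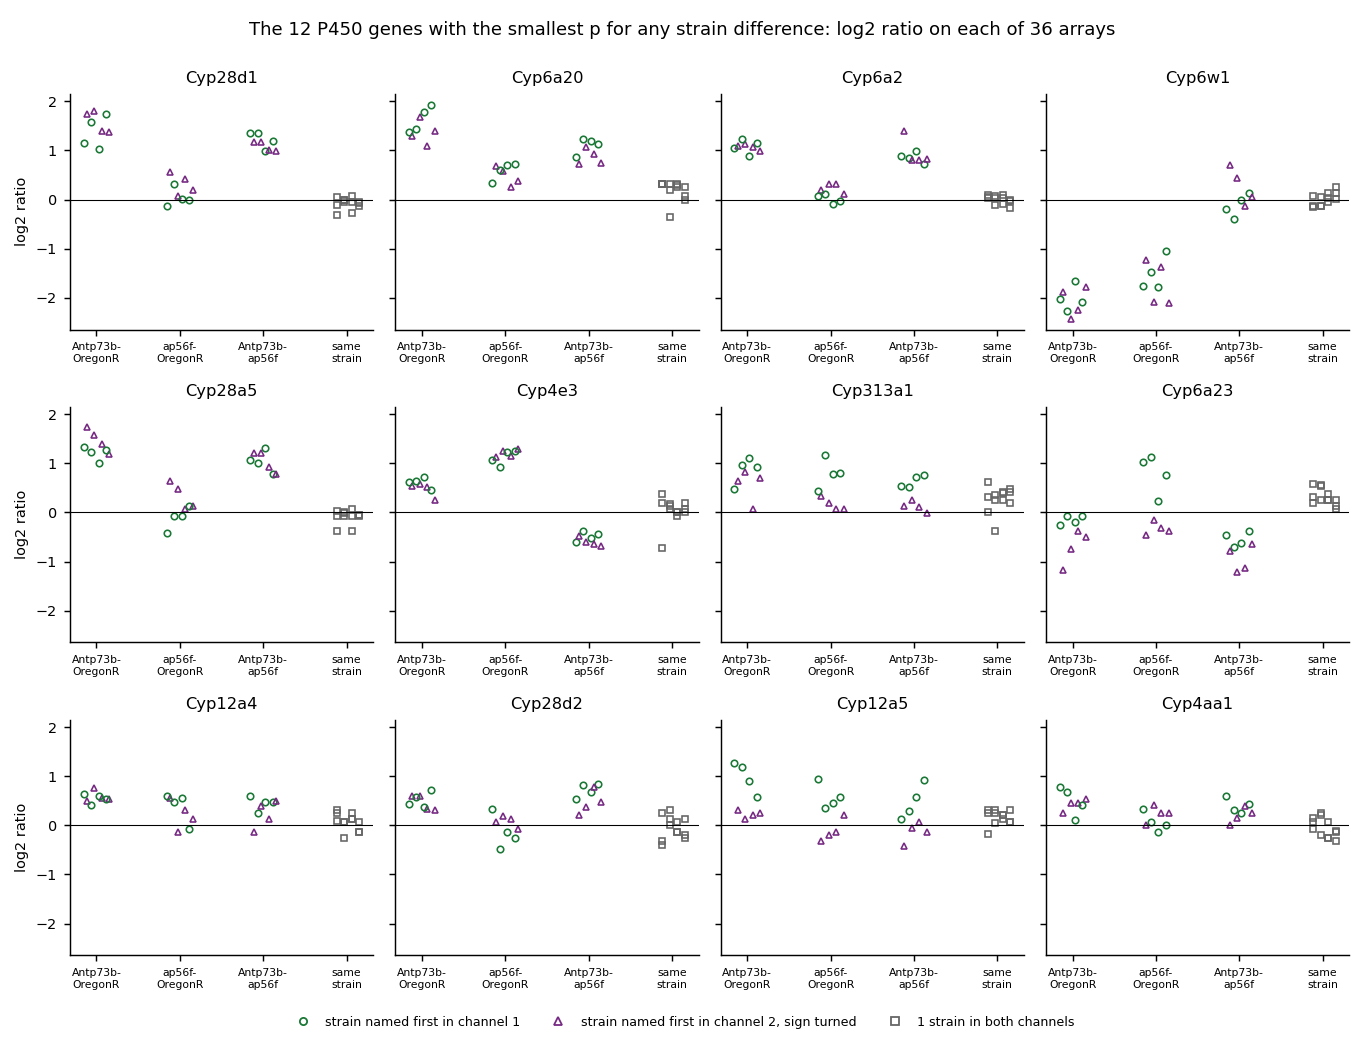
Log2 ratios of the 12 P450 genes with the smallest p for any strain difference, on every array. Circles are arrays with the strain named first in channel 1, triangles arrays of the opposite orientation with the sign turned, and squares arrays of a single strain, all with the dye offset left in. Cyp28d1, Cyp28a5, Cyp6a2 and Cyp6a20 are high on arrays that paired Antp73b with another strain, and Cyp4e3 is highest on ap56f and OregonR arrays. Cyp6w1 is low wherever a mutant met OregonR. Circles and triangles part in most comparisons at Cyp6a23, Cyp12a5 and Cyp313a1.

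Among the other Cyp6 genes, Antp73b stood apart on the plus side at Cyp6d5 (0.45 from OregonR and 0.38 from ap56f), Cyp6a18 (0.48 and 0.24), Cyp6d4 (0.32 and 0.25) and Cyp6g2 (0.17 and 0.21). Cyp6g1, whose overexpression gives resistance to DDT, was called only between the mutants (0.19, limma adjusted p = 0.012). Its differences from OregonR were 0.07 in Antp73b and -0.12 in ap56f. Cyp6g2, its neighbour and also able to give resistance when overexpressed, lost its call against OregonR without array 50, 62 or 63, at 0.15 each time.

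Cyp6a19 lay on the minus side in both mutants, at -0.33 and -0.29, and Cyp6a14 on the plus side in both, at 0.18 and 0.25. The Cyp6a14 call in Antp73b was lost without array 50 (0.16) or 64 (0.13). Cyp6a9 was called in Antp73b against OregonR alone (0.28, limma adjusted p = 0.0016). The other 8 Cyp6 genes had no call for any strain difference, Cyp6a13, Cyp6a21, Cyp6a22, Cyp6d2, Cyp6t1, Cyp6t3, Cyp6u1 and Cyp6v1, with differences from OregonR between -0.08 and 0.16.

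Neighbouring genes did not move as blocks in the longest run of P450 genes on the array. This run of 9 on arm 2R holds, in order, Cyp6a22, Cyp6a17, Cyp6a23, Cyp6a19, Cyp6a9, Cyp6a20, Cyp6a21, Cyp6a8 and Cyp317a1. From Cyp6a22 to Cyp317a1 its 7 tested genes differed from OregonR in Antp73b by 0.06, -0.46, -0.33, 0.28, 1.51, 0.16 and -0.03. Cyp6a19, on the minus side, was thus separated only by Cyp6a9 from Cyp6a20, which had the most positive P450 difference. The untested Cyp6a17 and Cyp6a8 gave 0.85 and 1.26 in this comparison when features with missing values were kept, Cyp6a8 from even-numbered arrays only. The bases that each element carries were not used here, so signal from a near relative cannot be told apart from a gene's own.

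**Figure D4:**
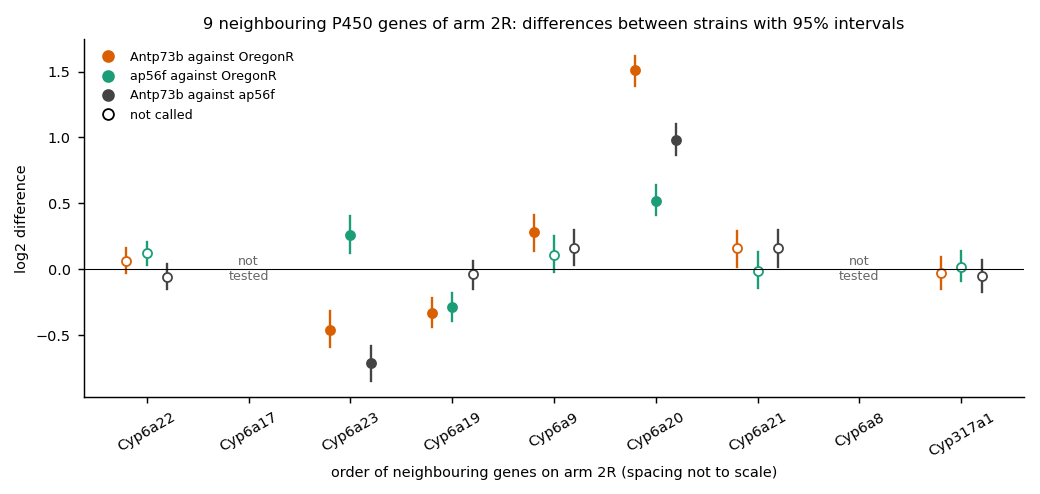
Log2 differences with 95% intervals for 9 neighbouring P450 genes in their order along arm 2R, for the 3 comparisons from 36 arrays. Filled points were called and open points were not, and Cyp6a17 and Cyp6a8 were not tested. Among the tested genes, Cyp6a20 is high, Cyp6a23 and Cyp6a19 are low in Antp73b against OregonR, and those at both ends lie near zero.

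Some other neighbours lay closer together, and others did not. In Antp73b against OregonR, Cyp28d2 and Cyp28d1 gave 0.52 and 1.43, and Cyp316a1 and Cyp4d8 gave 0.01 and 0.31. Cyp12a5 and Cyp12a4 on arm 3R differed from OregonR by 0.54 and 0.59 in Antp73b and by 0.30 and 0.28 in ap56f. Cyp4e2 and Cyp4e1 differed by 0.37 and 0.23 in Antp73b and by 0.39 and 0.29 in ap56f, while Cyp4ad1 beside them gave 0.01 and 0.05. On the X chromosome, Cyp4d14 gave 0.24 and 0.20 and its neighbours Cyp4d2 and Cyp4ae1 between -0.01 and 0.08. The Cyp4d14 call in ap56f was lost without array 56, 57 or 67, at 0.15 to 0.18.

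All Cyp4 calls against OregonR lay on the plus side, in both mutants. The family holds fatty acid hydroxylases, and 11 of its 18 tested genes differed between strains (61.1%, against 29.6% of all features). In Antp73b against OregonR 10 were called plus and 0 minus, and in ap56f against OregonR 8 plus and 0 minus. The plus and minus shares of all features were 11.7% and 11.5%, and 8.45% and 7.45%. At those shares 18 genes would hold few minus calls. The family median was 0.18 and 0.16 in these comparisons. No Cyp4 gene reached an unadjusted limma p under 0.05 on the minus side of OregonR in either mutant. Between the mutants 1 gene was called on each side, Cyp4aa1 and Cyp4e3.

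Cyp4e3 was the P450 gene that most set ap56f apart. It has been tied to permethrin tolerance in Malpighian tubules. It read between 0.92 and 1.29 (median 1.19) for ap56f and OregonR, between 0.26 and 0.73 (median 0.56) for Antp73b and OregonR, and between -0.69 and -0.37 for Antp73b and ap56f. The first 2 ranges did not overlap, and the arrays of a single strain ran from -0.73 to 0.38, with 1 OregonR array far below the rest. The fitted differences were 1.13 (2.2-fold, SE 0.054, limma adjusted p = 2.8e-22), 0.56 and -0.57.

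Cyp4aa1 stood apart in Antp73b, at 0.46 from OregonR and 0.30 from ap56f, and its difference of 0.15 in ap56f missed the threshold (limma adjusted p = 0.053). Its direct arrays ran from 0.11 to 0.77 for Antp73b and from -0.13 to 0.42 for ap56f, so these ranges overlapped. Cyp4p2, Cyp4d8 and Cyp4g1 lay on the plus side in both mutants, at 0.40 and 0.33, 0.31 and 0.26, and 0.16 and 0.17. Cyp4g1 is the oenocyte enzyme that forms cuticular hydrocarbons. Its dye offset was 0.26, and its direct arrays lay 4 plus and 4 minus for Antp73b and 5 and 3 for ap56f. With the offset taken off, all 8 lay on the plus side in each comparison with OregonR. Both Cyp4g1 calls were lost on the 8 direct arrays alone, on the 16 indirect arrays alone and without a dye term. Cyp4d20 (0.19) and Cyp4p3 (0.33) were called in Antp73b against OregonR alone, the latter not without array 51 (0.29), 53 (0.28) or 64 (0.28). Cyp4d1 was called in ap56f alone (0.19), with elements at 0.27 and 0.11, and not without array 57 (0.13). Cyp4d21, known as sex-specific enzyme 1 and tied to male courtship, had no call, at 0.05, -0.02 and 0.07. Cyp4ac1, Cyp4ad1, Cyp4ae1, Cyp4d2, Cyp4g15 and Cyp4s3 had none either, with differences from OregonR between -0.10 and 0.08.

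Among genes of the mitochondrial clan, 5 of 7 differed between strains (71.4%, against 29.6% of all features), and its Cyp12 genes went to both sides. Cyp12a4, whose overexpression gives resistance to the growth inhibitor lufenuron, read between 0.42 and 0.76 for Antp73b and OregonR and between -0.13 and 0.60 for ap56f and OregonR. These ranges overlapped, and 6 of the 8 ap56f arrays were positive. The fitted differences were 0.59 (SE 0.057, limma adjusted p = 9e-12) and 0.28. Cyp12a5 gave 0.54 and 0.30, with direct arrays from 0.13 to 1.26 for Antp73b and from -0.31 to 0.94 for ap56f, and with a dye offset of 0.29 that parted the orientations. Cyp12c1 lay on the minus side in both mutants, at -0.36 and -0.32.

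The other mitochondrial genes gave smaller values. Cyp12e1 was called in Antp73b against OregonR (0.28, limma adjusted p = 0.00083). Cyp49a1 was called between the mutants (-0.15), a call lost without array 60, 61 or 71, at -0.14 to -0.13. Of its elements tested alone, 1 gave -0.08 and the other -0.22. Cyp12b2 gave -0.15 and -0.17 from OregonR and Cyp301a1, which acts in forming adult cuticle, gave -0.05 and -0.09, with no call.

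Of the 4 CYP2 clan genes 1 differed between strains (25.0%, against 29.6% of all features), Cyp304a1, at 0.30 in Antp73b and 0.21 in ap56f. Cyp18a1, which inactivates ecdysone, had no call, at -0.15, -0.11 and -0.04. Cyp303a1, needed in external sensory organs, was called in Antp73b against OregonR alone (-0.15, limma adjusted p = 0.039), and that call was lost when any of 10 arrays was left out (-0.15 to -0.12). Cyp305a1 had no call.

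In the Cyp9 family 4 of 5 genes differed between strains (against 29.6% of all features), and they split between the sides. Against OregonR, Antp73b was called plus at Cyp9b1 (0.20), Cyp9h1 (0.19) and Cyp9b2 (0.15), and minus at Cyp9f2 (-0.19) and Cyp9c1 (-0.18). Over all features 11.7% were called plus and 11.5% minus in that comparison. Cyp9b2 lost its call when any of 22 arrays was left out (0.13 to 0.16), Cyp9f2 without array 50 (-0.16), and Cyp9c1 without array 50 (-0.13) or 53 (-0.16). Cyp9f2 also lay on the minus side in ap56f (-0.35, limma adjusted p = 1.3e-05), and Cyp9b1 set Antp73b apart from ap56f by 0.34.

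In the Cyp313 family 3 of 5 tested genes differed between strains (60.0%, against 29.6% of all features). Cyp313a1 read between 0.06 and 1.10 for Antp73b and OregonR and between 0.07 and 1.16 for ap56f and OregonR. With the dye offset left in, both ranges overlapped the single-strain arrays, which ran from -0.37 to 0.62. With the offset taken off, all 8 direct arrays lay on the plus side in each of these comparisons. Its fitted differences were 0.76 (limma adjusted p = 1.6e-13), 0.43 and 0.33, and its dye offset was 0.26. Cyp313a4 stood apart in ap56f, at 0.33 from OregonR and -0.19 in Antp73b against ap56f. Cyp313a3 lay on the plus side in both mutants, at 0.33 and 0.26, and the latter lost its call without array 56 (0.16). Cyp313a5 and Cyp313b1 had no call.

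The families with under 4 tested genes held 14 genes, of which 6 differed between strains (42.9%, against 29.6% of all features). These were Cyp304a1, Cyp309a1, Cyp309a2, Cyp312a1, Cyp318a1 and Cyp49a1. Apart from Cyp304a1, each of their called differences was under 0.2 in size. Cyp318a1 was called minus in Antp73b against both other strains (-0.13 and -0.14), yet of its 2 elements 1 gave -0.20 and -0.21 and the other -0.06 and -0.07. The first call was lost without array 53 (-0.12) or 65 (-0.11) and the second without array 59 (-0.13), 72 (-0.12) or 73 (-0.14). Cyp310a1, Cyp311a1, Cyp316a1 and Cyp317a1 had no call.

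**Figure D5:**
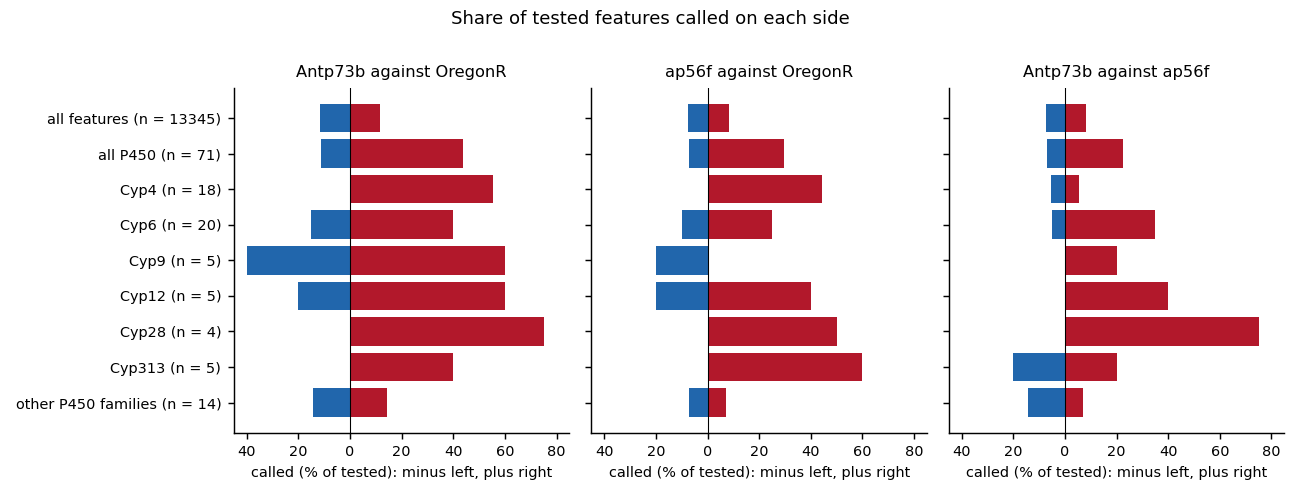
Share of tested features called plus (right, red) and minus (left, blue) in the 3 comparisons, for all 13345 features, all 71 P450 genes and each family, with the number tested in brackets. Cyp4 genes have no minus call in either comparison with OregonR, 3 of 4 Cyp28 genes are on the plus side in both comparisons that hold Antp73b first, and the sides split in Cyp6, Cyp9 and Cyp12.

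By chromosome arm, the share of P450 genes that differed between strains was 84.6% on 3R (11 of 13), 66.7% on 3L, 62.1% on 2R, 60.0% on 2L and 30.8% on the X chromosome (4 of 13). Over all tested genes these arms held between 28.1% (X) and 33.2% (2L). Some P450 genes of an arm lie in runs, so genes of 1 arm may not be independent of each other, which was not tested.

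On the arrays that paired different strains, the 71 genes spread more widely than on the arrays of a single strain. Their SD within an array ran from 0.30 to 0.60 over the 24 arrays of different strains and from 0.16 to 0.30 over the 12 others. A dye offset was called for 34 of 71 P450 genes (47.9%), against 61.4% of all features.

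The 3 P450 pairs most alike over the 36 arrays, with the dye offset removed, were Cyp28a5 and Cyp28d1 (Pearson r = 0.976), Cyp28d1 and Cyp6a2 (0.972) and Cyp28a5 and Cyp6a2 (0.969). Cyp28a5 and Cyp28d1 lie apart on arm 2L and Cyp6a2 on arm 2R. These values describe genes read on the same arrays from the same labelled RNA.

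The 8 P450 genes without a test were Cyp308a1, Cyp313a2, Cyp4ac2, Cyp4ac3, Cyp4c3, Cyp4p1, Cyp6a17 and Cyp6a8, each with under 2 values in at least 1 of the 9 groups of 4 arrays. They had a value on 2 (Cyp313a2) to 30 (Cyp6a17) arrays. When features with missing values were kept, Cyp6a8, a gene induced by barbiturates and caffeine, gave 1.26 in Antp73b against OregonR (limma adjusted p = 6.5e-14), 0.28 in ap56f against OregonR and 0.98 between the mutants on 17 arrays. All of the Cyp6a8 arrays were even-numbered, so its values rest on that part of the series only. Cyp6a17, tied to temperature preference, gave 0.85, 0.10 and 0.76, and Cyp4p1 0.65, 0.16 and 0.49. Cyp4p1 had a value on 19 arrays, with under 2 values in 4 of the 9 groups. It had none on arrays with ap56f in channel 1 and Antp73b in channel 2. In that setting the other untested genes had no call or, for Cyp313a2, no fit. Cyp12d1-d and Cyp12d1-p were not analysed here.

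The cyclophilins gave -0.14 (Cyp1, limma adjusted p = 0.045) and -0.09 (Cyp40) in Antp73b against OregonR, with no other call.

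Genes that work with P450 enzymes were read from lists, and only genes found on the array by symbol were counted. Over all features 23.2% were called in Antp73b and 15.9% in ap56f, both against OregonR. Lists of 4 to 8 genes hold too few to be told apart from those shares. Among 4 P450 genes with other symbols, the ecdysone enzymes dib, sad, shd and spo, only shd was called, at 0.26 in Antp73b against OregonR. Of 6 genes listed as electron donors 4 were on the array, and Cpr and dare were not found there. Cyt-b5 (0.15) and Cyt-b5-r (0.37, limma adjusted p = 3.4e-08) were called plus in Antp73b against OregonR, and Fdx2 was called minus in ap56f (-0.14). Cyt-b5-r resembles fatty acid desaturases and is not known as a donor to P450 enzymes, so it stands on that list by its name only. Of 8 regulators of detoxification genes, among them cnc, Keap1 and Hr96, 0 were called by limma in Antp73b against OregonR and usp alone in ap56f (-0.17), with 1 on the minus side at an unadjusted p under 0.05 in the former.

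Conjugating enzymes act after P450 enzymes by adding glutathione or sugars. In Antp73b against OregonR, 24 of 60 were called plus and 5 minus (median 0.11), against 4 plus and 10 minus (median 0.01) in ap56f and 23 plus and 5 minus (median 0.04) between the mutants. Over all features the plus and minus shares were 11.7% and 11.5%, 8.45% and 7.45%, and 8.29% and 7.36%. Ugt35C1 lay on the plus side in both mutants (0.91 and 0.89), whereas GstE9 (0.45 and -0.04) and GstD5 (0.30 and -0.25) did not.

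Marker lists of tissues were counted in the same way, beside 23.2% of all features called in Antp73b and 15.9% in ap56f against OregonR. Found on the array were 15 of 23 listed egg shell and yolk genes, 5 of 10 of fat body and 29 of 42 of midgut. For male accessory gland, oenocyte and Malpighian tubule they were 15 of 21, 5 of 7 and 6 of 8. Of 15 egg shell and yolk genes, 13 were called minus in Antp73b (median -0.75) and 15 in ap56f (median -0.49) against OregonR. All 5 fat body genes were called plus in Antp73b (median 0.48) and 4 in ap56f (0.49). Of 29 midgut genes 8 were plus and 13 minus in Antp73b, of 15 male accessory gland genes 1 and 8, of 5 oenocyte genes 1 and 2, and of 6 Malpighian tubule genes 0 and 2. In ap56f the same lists gave 9 and 7, 1 and 12, 1 and 0, and 1 and 0. Their part in the P450 differences was not tested.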

How the data were processed

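The deposited table holds 1 value per spot and array, treated here as a score: the signed fold ratio between channels, with 1 decimal, 0 of 1059750 values between -1 and 1, and a range of -11.2 to 9.9. Per the labels, poly(A)-selected mRNA was labelled with Cy3 (channel 1) or Cy5 (channel 2). The authors' signal processing before deposit is not given in the labels. Ratios were turned into log2 values with their sign kept, the 2 spots of each of 15732 elements were averaged, arrays were centred on their median, and the elements of a gene were averaged. Duplicate spots correlated with a median r of 0.579 per array. A value of size 1 made up 19.1% of values, and the next step is 0.14 on the log2 scale. Gene names came from the platform's table, updated through a RefSeq gene table of assembly Release 6, which also gave chromosome arms and neighbours but no coordinates printed here. No table used here holds bases of the genes, so none are shown.

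A feature is a gene, or an element with no or several listed genes, and was tested with at least 2 values in each of the 9 groups of 4 arrays (13345 features, 10477 of them genes, with 651 left out). limma 3.58.1 in R 4.3.3 fitted a dye intercept and strain terms over 36 arrays, and two-sided p-values took a Benjamini-Hochberg adjustment over all features at 0.05. A strain stood apart if called on the same side against both others. The labels name no batch, so subsets and blocks by place in the group and by parity of the array number were run as alternatives. Steps were tested on simulated data. Array numbers are not shared between groups.

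The P450 genes, lists and tests were chosen with earlier results of these data known. Genes named were the 10 largest called differences per comparison and side, the smallest p in each subfamily with 3 or more tested genes, 18 genes of known function, runs of neighbours, and, with array values, the 12 smallest p for any strain difference. Other genes are named to account for every member.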

Additional observations from a re-analysis of the deposited data

Results flagged for a closer look

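Among the 12 P450 genes with array values, 108 groups of 4 arrays were examined for an array that lay far from the other 3 by Dixon's criterion, and 5 did. Chance gives about 5% of groups, so this number is no more than chance gives. Cyp6a2 read -0.17 on array 47 of ap56f in both channels, with the others between 0.03 and 0.06, and -1.39 on array 72 of ap56f and Antp73b, with the others between -0.83 and -0.80. Cyp28a5 read -0.38 on array 48 of ap56f in both channels, with the others at -0.07. Cyp4e3 read -0.73 on array 40 of OregonR in both channels, with the others between -0.07 and 0.06, and 0.01 on array 42 of Antp73b in both channels, with the others between 0.17 and 0.20. These values are coded as channel 1 over channel 2.

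Cyp6a23 was called on opposite sides of OregonR in the mutants, and the difference between the mutants was tested directly (-0.71, limma adjusted p = 9.5e-12). That test does not place ap56f relative to OregonR. The call of ap56f against OregonR (0.26) was lost on the 8 direct arrays alone, on the 16 indirect arrays alone and without a dye term. It was also lost on the first 2 arrays of each group and on the even-numbered arrays. On direct arrays all 8 values of Antp73b against ap56f were negative.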

How the results depend on the processing

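Of 86 called differences of P450 genes (39, 26 and 21 in the 3 comparisons), 29 kept their call under every alternative run (17, 5 and 7), 71 kept it without any 1 array, and 0 changed side. The 15 calls lost without 1 array are named in the report with the arrays, which for Cyp303a1 were 51, 52, 53, 60, 61, 62, 63, 64, 67 and 68, and for Cyp9b2 40, 41, 44, 45, 46, 47, 50, 51, 53, 55, 57, 58, 60, 61, 62, 63, 64, 65, 67, 69, 70 and 71. Without any 1 array, calls in Antp73b against OregonR ran from 28 to 32 plus and 6 to 9 minus, in ap56f against OregonR from 17 to 22 and 5 to 6, and between the mutants from 16 to 18 and 4 to 5, while 38 to 44 genes differed between any strains.

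Counts moved by over 1.5 times mainly where fewer arrays were used. With the first comparison Antp73b against OregonR, the second ap56f against OregonR and the third between the mutants, the P450 counts and those of conjugating enzymes were as follows. Without centring the third had 3 minus. Without a dye term the first had 5 minus, the third 2 minus, and 8 conjugating enzymes were called in the second. On 8 direct arrays the first had 4 minus, the second 6 plus and 9 conjugating enzymes, and the third 2 minus. On 16 indirect arrays the first had 13 plus, 4 minus and 12 conjugating enzymes, the second 6, 1 and 5, and the third 6, 2 and 14. On the first 2 arrays of each group the second had 13 plus and 9 conjugating enzymes, the third 2 minus, and 2 Cyp9 genes differed between strains. On the last 2 the first had 4 minus, the second 8 conjugating enzymes and the third 9 plus, 2 minus and 18 conjugating enzymes, with 27 P450, 5 Cyp4 and 2 Cyp9 genes that differed. On even-numbered arrays the first had 19 plus, 5 minus and 19 conjugating enzymes, the second 10 plus and 8 conjugating enzymes and the third 10 plus and 2 minus, with 23 P450, 7 Cyp4, 1 Cyp9 and 1 Cyp313 genes that differed. On odd-numbered arrays the first had 4 minus, the second 13 plus, 3 minus and 8 conjugating enzymes and the third 2 minus. These fits hold fewer arrays. The cause of the changes without centring or a dye term was not tested.

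No analysis paired by replicate number was possible because array numbers are not shared between groups. Blocks for place in the group or parity of the array number ended no P450 call and moved no count by over 1.5 times. The step of 0.14 between neighbouring deposited values limits small differences.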
